A study of Rattus norvegicus with 8 samples.

Results

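Transcripts of 8 rat genes that remodel and clear plasma lipoproteins were followed in liver samples from a high-fat diet study. The genes were Lipc, Lpl, Lcat, Pltp, Scarb1, Lrp1, Vldlr and Sort1, taken by name. Every probe whose printed accession maps to one of these symbols was read, whatever its value. The list was drawn up with earlier results of these data known. These genes are 8 of the 13338 genes with a symbol that were tested on the array. Together they had 10 probes, since Scarb1 and Sort1 had 2 each and the other 6 genes had 1. All 10 probes were bright enough to be tested.

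The high-fat samples were 5 livers of male rats, 22 weeks old, after 14 weeks of high-fat diet, whose labels give the disease state NAFLD (non-alcoholic fatty liver disease). The chow samples were 3 livers of male rats of the same age after 14 weeks of standard chow, and served as controls. The labels name no strain, no composition of either diet and no measure of plasma lipids or liver fat. Total RNA from each sample was labelled with Cy3 and hybridised to 1 single-colour Agilent array, and the study asked which genes of glucose and lipid metabolism differ in fatty liver. Whether the samples came from separate animals is not stated, so the p-values measure only the spread between these samples.

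Lipoproteins carry triglyceride and cholesterol through the blood, and enzymes reshape them on the way. Lipoprotein lipase and hepatic lipase hydrolyse their triglyceride, lecithin-cholesterol acyltransferase loads HDL with cholesteryl ester, and phospholipid transfer protein moves phospholipid between particles. The liver then takes up what is left through endocytic receptors and through scavenger receptor class B type I, and sortilin directs particles that carry apolipoprotein B inside the hepatocyte.

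Under high-fat diet no member passed the test across all features, and the estimated changes were small. Transcripts of Lipc and Lcat, plasma enzymes that hepatocytes secrete, and of the remnant receptor Lrp1 read lower on every high-fat array than on every chow array, by 1.31-fold, 1.48-fold and 1.33-fold on average. Sort1 read higher on every high-fat array by its brighter probe, by 1.35-fold on average. The brighter Scarb1 probe averaged 1.51-fold higher, while the dimmer Scarb1 probe read lower on every high-fat array. Lpl, Pltp and Vldlr overlapped between the diets. Of all features, 17.1% did not overlap. Among features about as bright as Lipc and Lcat, 23.1% read lower on every high-fat array, and 15.0% among those like Lrp1. Among those like the brighter Sort1 probe, 7.65% read higher on every high-fat array. By scan times no slide carried both diets, which means these differences cannot be assigned to diet rather than slide.

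The stretch of 250 bases before the annotated start site is printed for Lipc, Lcat and Sort1, as 2 secreted enzymes that read lower in every high-fat sample and the sorting receptor that read higher in every high-fat sample by its brighter probe, though not by its dimmer one. The sequences are from RefSeq on the GRCr8 assembly and are written in the direction of transcription. Capitals mark matches, on either strand, to 5 motifs: the HNF1 motif GTTAATNAT, the HNF4 motif CAAAGGTCA, the CCAAT box CCAAT, the GC box GGGCGG and the TATA box TATAAA. The Lipc stretch lies at chr8:80516286-80516535 on the minus strand, the Lcat stretch at chr19:50748065-50748314 on the minus strand and the Sort1 stretch at chr2:198612245-198612494 on the plus strand.
Lipc: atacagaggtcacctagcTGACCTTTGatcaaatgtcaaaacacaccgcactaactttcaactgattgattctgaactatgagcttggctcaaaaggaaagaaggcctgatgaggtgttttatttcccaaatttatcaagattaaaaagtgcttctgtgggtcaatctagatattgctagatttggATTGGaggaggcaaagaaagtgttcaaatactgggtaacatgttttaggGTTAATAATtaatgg
Lcat: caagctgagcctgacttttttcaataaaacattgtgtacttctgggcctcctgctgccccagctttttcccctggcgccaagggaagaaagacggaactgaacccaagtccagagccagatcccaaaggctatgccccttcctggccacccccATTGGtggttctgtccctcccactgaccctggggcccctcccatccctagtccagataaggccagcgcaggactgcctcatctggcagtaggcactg
Sort1: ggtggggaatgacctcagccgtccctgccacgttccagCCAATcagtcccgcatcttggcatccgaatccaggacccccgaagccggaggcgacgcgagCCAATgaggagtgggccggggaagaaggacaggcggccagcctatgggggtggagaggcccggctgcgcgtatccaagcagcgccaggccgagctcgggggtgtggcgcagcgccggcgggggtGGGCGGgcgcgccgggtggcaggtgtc
In the Lipc stretch the HNF4 motif stands on the opposite strand at positions −232 to −224 from the start site, and the HNF1 motif at −15 to −7. Both name factors of hepatocytes. Of 33469 promoters of this length, 0.376% hold the HNF4 motif and 0.666% the HNF1 motif. The letters of the HNF1 motif were cut from a longer form after its match in the Lipc stretch had been seen, so its share describes the shorter letters and supports nothing about Lipc. The Lcat stretch has a CCAAT box on the opposite strand at −97 to −93. Sort1 has CCAAT boxes at −212 to −208 and −151 to −147 and a GC box at −27 to −22. The CCAAT box is found in 34.0% of all promoters, the GC box in 30.5% and the TATA box, which none of these 3 stretches holds, in 12.9%. The Sort1 stretch is rich in G and C at 71.6% of its bases, against 57.6% for Lcat, 37.2% for Lipc and a median of 51.2% over all promoters. A match describes letters in a window and was not set against any measured binding. An upstream stretch was matched for 6 of the 8 members, all but Lpl and Scarb1.

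Values are log2 signals relative to the 75th percentile of the array, so 1 unit is a doubling and a negative value is a signal below that percentile. A level can be compared between samples for 1 probe, but not between probes. High-fat diet was compared with chow with limma, and p-values were adjusted by the Benjamini-Hochberg method over 22868 features, with 0.05 as the threshold. Of these features 815 passed, which is 3.56%, of which 703 were higher and 112 were lower under high-fat diet. The split depended on the scaling: quantile normalization gave 797 higher and 294 lower, and normexp with quantile normalization gave 1038 higher and 1076 lower. Of the 8 members 0 passed by limma. An unadjusted p under 0.05 was found for 5 members, against 20.2% of all features, and the adjusted p of these members ran from 0.107 to 0.235.

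**Figure D1:**
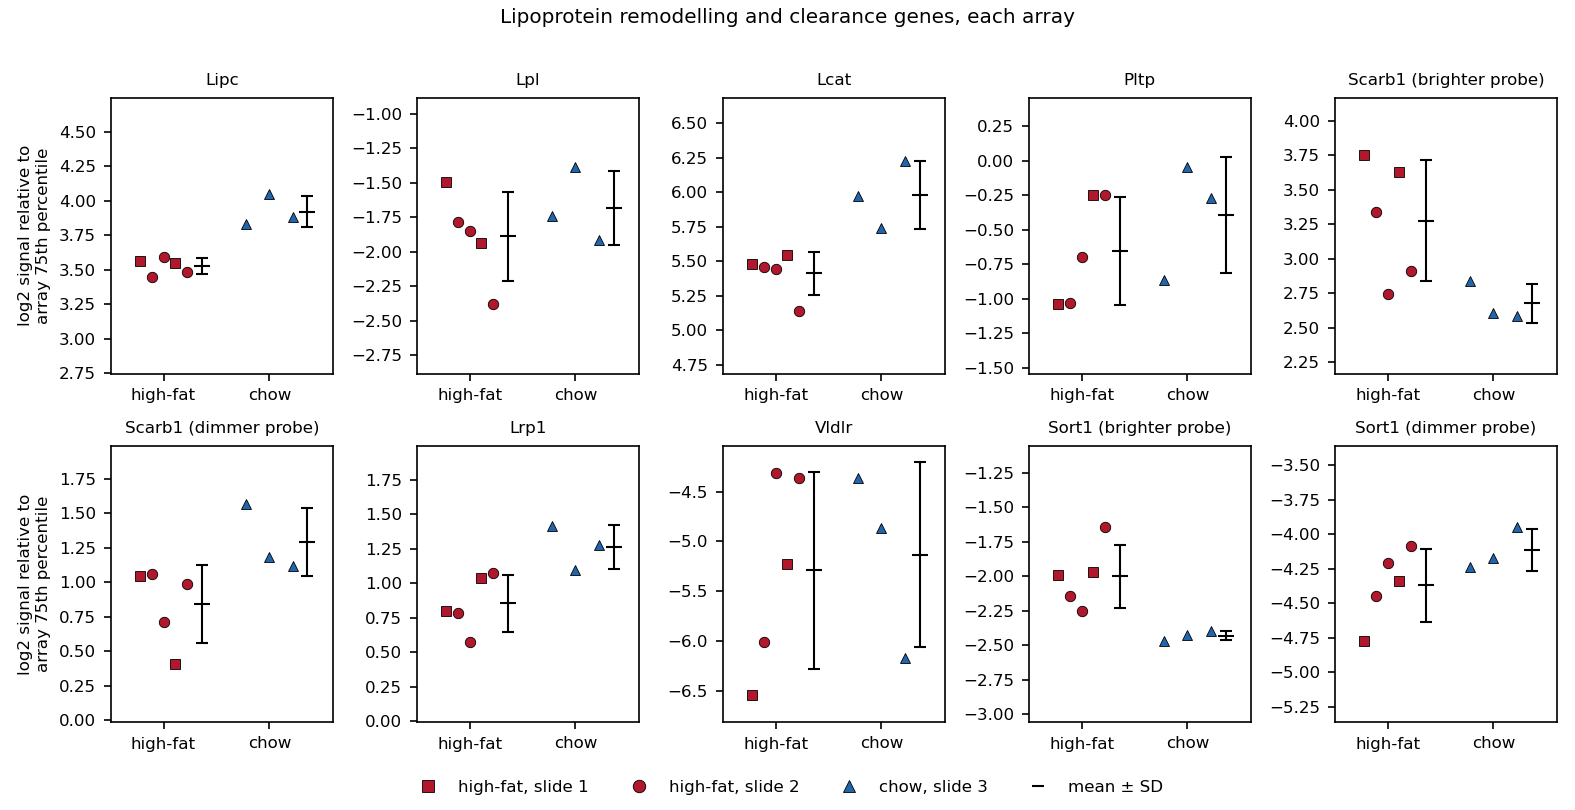
Signal of each of the 10 probes on every array, as log2 relative to the 75th percentile of the array (vertical axis, its range set for each probe), with the 5 high-fat samples at the left and the 3 chow samples at the right of each panel. Marker shapes give the slide, and the black bars give the mean ± SD. The diets do not overlap for Lipc, Lcat, Lrp1, the brighter Sort1 probe and the dimmer Scarb1 probe.

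Among the enzymes, hepatic lipase came first. Lipc encodes this lipase, which hepatocytes secrete and which acts on remnants and HDL in the liver sinusoids. Its probe, A_44_P313838, read 3.56, 3.45, 3.59, 3.55 and 3.48 in high-fat samples 1 to 5, against 3.83, 4.05 and 3.88 in chow samples 1 to 3. Every high-fat sample lay below every chow sample, and the high-fat samples lay close together. The means were 3.53 ± 0.06 in high-fat samples (SD, n = 5) and 3.92 ± 0.11 in chow samples (SD, n = 3). The log2 fold change was −0.39 ± 0.13 (SE), with a 95% interval of −0.68 to −0.11 and a limma adjusted p of 0.134. When limma weighted the arrays by their quality the adjusted p was 0.0375, and with normexp background and quantile normalization the log2 fold change was 0.0032. Over all the alternatives tried, its adjusted p ran from 0.0375 to 0.990.

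Lpl encodes lipoprotein lipase, the enzyme of capillary walls in fat and muscle, whose transcript is low in adult liver as a rule. Its probe, A_44_P1016480, is printed in 10 spots, and their mean read −1.49, −1.79, −1.85, −1.94 and −2.38 in high-fat samples 1 to 5, against −1.74, −1.39 and −1.92 in chow samples 1 to 3. The diets overlapped: the highest value was on a chow array and the lowest on a high-fat array. It had a log2 fold change of −0.21 ± 0.22 (SE), with a 95% interval of −0.71 to 0.29 and a limma adjusted p of 0.663. With 1 array left out it lay between −0.32, without chow sample 3, and −0.06, without chow sample 2. The spots were well above background on all arrays.

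Lcat encodes lecithin-cholesterol acyltransferase, which the liver secretes and which esterifies cholesterol on HDL. It had the smallest adjusted p among the members. Its probe, A_43_P15264, read 5.48, 5.46, 5.45, 5.54 and 5.14 in high-fat samples 1 to 5, against 5.97, 5.74 and 6.23 in chow samples 1 to 3. No value was shared between the diets, and 4 of the 5 high-fat samples lay within a narrow range while the fifth was lower. The means were 5.41 ± 0.16 in high-fat samples (SD, n = 5) and 5.98 ± 0.25 in chow samples (SD, n = 3). The log2 fold change was −0.57 ± 0.16 (SE), with a 95% interval of −0.94 to −0.19 and a limma adjusted p of 0.107. With array weights the limma adjusted p was 0.0247, and over all the alternatives it ran from 0.0247 to 0.800, the last with slide as a random block.

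The transfer protein differed between the diets by less than the spread of the samples. Pltp encodes phospholipid transfer protein, which moves phospholipid from triglyceride-rich particles to HDL. Its probe, A_44_P436280, read −1.04, −1.03, −0.70, −0.25 and −0.25 in high-fat samples 1 to 5, against −0.86, −0.05 and −0.27 in chow samples 1 to 3. The values were spread over about the same range under both diets. Pltp had a log2 fold change of −0.26 ± 0.27 (SE), with a 95% interval of −0.89 to 0.36 and a limma adjusted p of 0.652. It was −0.50 without chow sample 1 and −0.09 without chow sample 2.

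Among the receptors, Scarb1 gave different answers by its 2 probes. Scarb1 encodes scavenger receptor class B type I, which takes cholesteryl ester from HDL into the hepatocyte. Its brighter probe, A_44_P422696, read 3.75, 3.34, 2.74, 3.63 and 2.91 in high-fat samples 1 to 5, against 2.84, 2.60 and 2.58 in chow samples 1 to 3. High-fat sample 3 lay below chow sample 1 and the other high-fat samples lay above all chow samples. The log2 fold change was 0.60 ± 0.25 (SE), with a 95% interval of 0.02 to 1.18 and a limma adjusted p of 0.235. The 2 high-fat arrays on slide 1 averaged 3.69 and the 3 on slide 2 averaged 3.00. Slide 1 alone against chow gave a log2 fold change of 1.01 with a limma adjusted p of 0.0294, and slide 2 alone gave 0.32 with 0.282. Over all the alternatives its adjusted p ran from 0.0169 to 0.870.

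The dimmer Scarb1 probe, A_64_P138776, read 1.05, 1.06, 0.71, 0.41 and 0.99 in high-fat samples 1 to 5, against 1.57, 1.19 and 1.12 in chow samples 1 to 3. Every high-fat sample lay below every chow sample, whereas by the brighter probe most high-fat samples lay above. This probe had a log2 fold change of −0.45 ± 0.20 (SE), with a 95% interval of −0.91 to 0.01 and a limma adjusted p of 0.262, adjusted over all probes. With both probes averaged, the log2 fold change of Scarb1 was 0.08 and its limma adjusted p 0.870. Where in the transcript each probe lies was not analysed here.

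Lrp1 encodes a large endocytic receptor that clears remnants rich in apolipoprotein E. Its probe, A_44_P375553, read 0.80, 0.78, 0.57, 1.04 and 1.08 in high-fat samples 1 to 5, against 1.42, 1.10 and 1.28 in chow samples 1 to 3. The diets did not overlap, but the gap was narrow: the highest high-fat sample and the lowest chow sample were nearly equal. Lrp1 had a log2 fold change of −0.41 ± 0.17 (SE), with a 95% interval of −0.79 to −0.04 and a limma adjusted p of 0.211. With array weights the limma adjusted p was 0.0439, and over all the alternatives it ran from 0.0439 to 0.898.

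Vldlr encodes the VLDL receptor, which binds particles rich in apolipoprotein E in muscle, heart and fat and is scarce in normal liver. Its probe, A_44_P214922, was well above background on 3 of 5 high-fat arrays and 1 of 3 chow arrays. It read −6.55, −6.01, −4.31, −5.23 and −4.37 in high-fat samples 1 to 5, against −4.36, −4.86 and −6.17 in chow samples 1 to 3. Both diets held dim and brighter samples, and the spread within a diet was the widest of all members. Vldlr had a log2 fold change of −0.16 ± 0.61 (SE), with a 95% interval of −1.54 to 1.22 and a limma adjusted p of 0.917, so that a change of more than 2-fold in either direction lies inside the interval. Without high-fat sample 1, without high-fat sample 2 or without chow sample 1 its sign turned, to 0.15, 0.02 and 0.22.

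Sort1, the sorting receptor, also had probes that differed. It encodes sortilin, which binds apolipoprotein B in the Golgi and carries it between secretion, breakdown and uptake. Its brighter probe, A_44_P822283, read −1.99, −2.15, −2.25, −1.97 and −1.64 in high-fat samples 1 to 5, against −2.47, −2.43 and −2.40 in chow samples 1 to 3. All high-fat samples lay above all chow samples, and the chow samples were nearly equal. The SD was 0.23 in high-fat samples (n = 5) and 0.04 in chow samples (n = 3). The log2 fold change was 0.43 ± 0.16 (SE), with a 95% interval of 0.05 to 0.80 and a limma adjusted p of 0.196. With normexp background it was 0.06, and over all the alternatives its adjusted p ran from 0.0904 to 0.892.

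The dimmer Sort1 probe, A_44_P445572, read −4.78, −4.45, −4.21, −4.34 and −4.08 in high-fat samples 1 to 5, against −4.23, −4.17 and −3.94 in chow samples 1 to 3. Its diets overlapped, with high-fat sample 1 lowest and chow sample 3 highest. For this probe the log2 fold change was −0.25 ± 0.18 (SE), with a limma adjusted p of 0.492. With both probes averaged, the log2 fold change of Sort1 was 0.09 and its limma adjusted p 0.812.

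Over the list, 6 of 8 members were lower and 2 were higher by estimate, with a median log2 fold change of −0.23 against −0.01 over all features. The median rested on single arrays: it was −0.075 without chow sample 2, −0.36 without chow sample 3 and −0.37 without high-fat sample 5. With normexp background correction, where the median of all features was −0.29, only Lcat and Vldlr of the members lay below that median, and the other 6 lay above it. In 4 of 8 members the diets did not overlap, against 17.1% of all features. In 3 of these members, Lipc, Lcat and Lrp1, high-fat samples lay below chow samples, which held for 9.17% of all features. In Sort1 they lay above, which held for 7.93%.

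**Figure D2:**
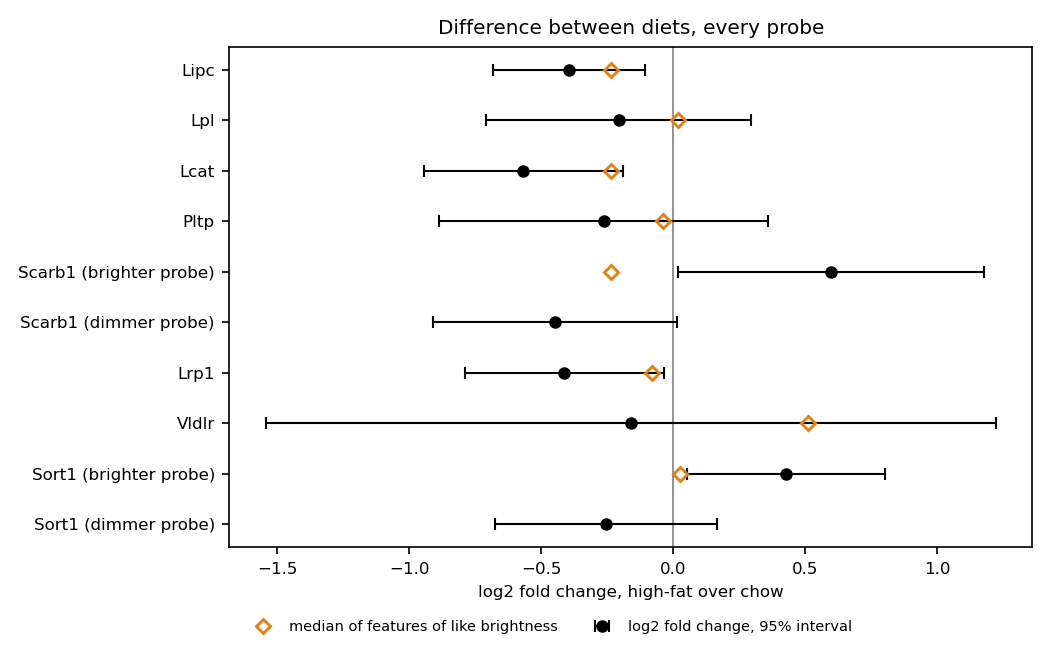
Log2 fold change of high-fat over chow (horizontal axis) for every probe, with its 95% interval. Open diamonds give the median over all features in the same of 10 brightness bins, for the probe used for each gene. The intervals of Lipc, Lcat, Lrp1, the brighter Scarb1 probe and the brighter Sort1 probe leave out 0, and the diamonds of the brightest genes stand below 0.

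Differences moved with the brightness of a probe across the whole array. When the features were cut into 10 equal bins by mean signal, the median log2 fold change was 0.51 in the dimmest bin and −0.24 in the brightest. Lipc, Lcat and the brighter Scarb1 probe fall in the brightest bin, where 23.1% of features had all high-fat samples below all chow samples and 2.89% had them above. Relative to the median of that bin, Lipc stood at −0.16, Lcat at −0.33 and Scarb1 at 0.84. Lrp1 stood at −0.33 relative to the median of its own bin, where 15.0% of features lay below chow without overlap. Sort1 stood at 0.40 relative to the median of a bin where 7.65% lay above.

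The arrays themselves differed in brightness with the diet. The 75th percentile of the processed signal averaged 856 ± 134 intensity units on high-fat arrays (SD, n = 5) and 379 ± 156 on chow arrays (SD, n = 3). On average 83.9% ± 5.91 of probes were well above background on high-fat arrays and 69.1% ± 2.43 on chow arrays. For each measure the exact permutation p was 0.0179 (two-sided), the smallest that 56 splits allow, and it was 0.0179 after adjustment over the pair. By their shared scan times, all chow arrays lay on 1 slide and the high-fat arrays on 2 others, so slide and diet cannot be told apart. High-fat samples 1 and 4, on slide 1, were scanned on a different day from all other arrays. With slide as a random block the limma adjusted p of the members was 0.800 or higher. The number of arrays limits the precision.

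Ratios within an array cancel any scaling of the whole array. Lcat over Scarb1, by the brighter Scarb1 probe, was 1.73, 2.12, 2.71, 1.92 and 2.23 on the log2 scale in high-fat samples 1 to 5, against 3.13, 3.13 and 3.65 in chow samples 1 to 3. Every high-fat ratio lay below every chow ratio. The means differed by −1.17, with an exact permutation p of 0.0179, the smallest the 56 splits allow, and 0.0536 after adjustment over the 3 ratios computed. With both Scarb1 probes averaged, the difference was −0.64 with an exact permutation p of 0.107 after adjustment.

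Lpl over Lipc compares the lipase of capillaries with that of the liver, and it averaged −5.42 ± 0.30 in high-fat samples (SD, n = 5) and −5.60 ± 0.18 in chow samples (SD, n = 3). The difference of 0.19 had an exact permutation p of 0.375, or 0.562 after adjustment, and its sign turned with normexp background, where it was −0.17. This ratio overlapped between the diets.

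The disagreement between the probes of a gene was picked out after the values were seen, so it is described here with no test. The brighter over the dimmer Scarb1 probe was 2.70, 2.27, 2.03, 3.22 and 1.92 in high-fat samples 1 to 5, against 1.27, 1.42 and 1.46 in chow samples 1 to 3. The means differed by 1.05. For Sort1 the ratio was 2.78, 2.30, 1.96, 2.36 and 2.44 in high-fat samples, against 1.77, 1.74 and 1.55 in chow samples. The means differed by 0.68. In both genes all high-fat samples lay above all chow samples.

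**Figure D3:**
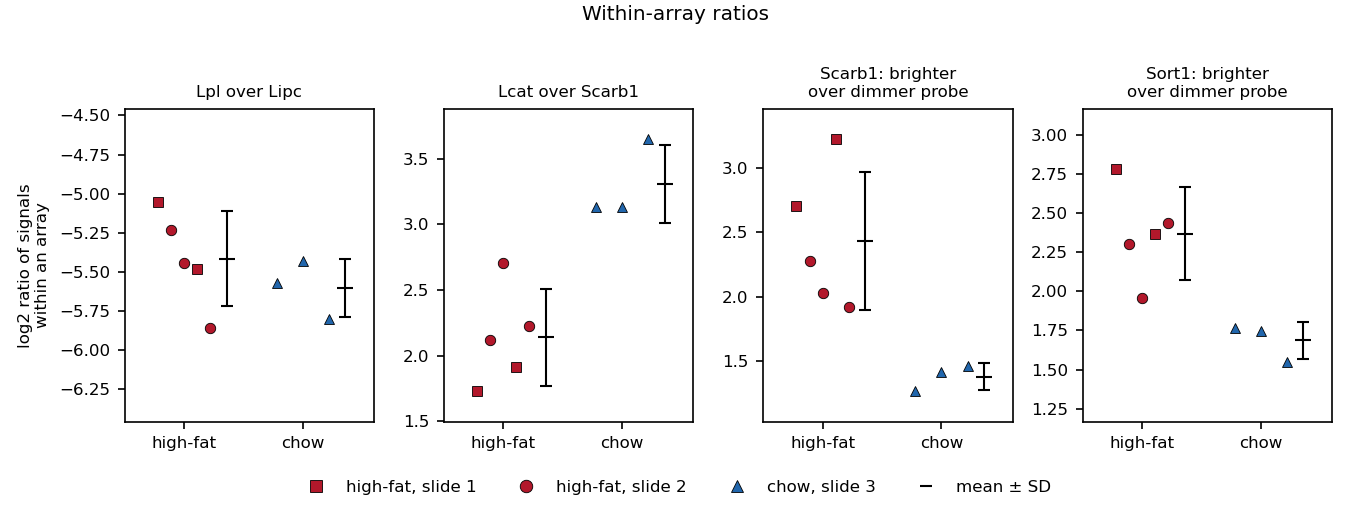
Log2 ratio of 2 signals on the same array (vertical axis), with the 5 high-fat samples at the left and the 3 chow samples at the right of each panel and the mean ± SD in black. Marker shapes give the slide. Lcat over Scarb1 lies lower on every high-fat array, both probe ratios lie higher on every high-fat array, and Lpl over Lipc overlaps.

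The direction of most members held when the processing was changed, read without the shift of the median described above. Of 20 alternatives each, the sign stayed in 20 for Lpl, Lcat, Pltp, Scarb1, Lrp1 and Sort1, in 19 for Lipc and in 16 for Vldlr. Some alternatives could not turn a sign. No filter and every probe gave the estimates as reported, and so did the mean of probes for genes with 1 probe. The diets did not overlap for Lipc, Lcat, Lrp1 and the brighter Sort1 probe. For these, leaving out a sample, taking 1 high-fat slide alone or weighting the arrays could not turn the sign either. Most of their kept signs therefore add nothing to the lack of overlap already given. The dimmer Scarb1 and Sort1 probes are not in these counts, and each was lower in all 18 alternatives fitted to it. The sizes moved more: Sort1 ran from 0.06 to 0.49, Lrp1 from −0.55 to −0.23, Pltp from −0.53 to −0.09 and Lpl from −0.32 to −0.03. Calls were rare: 3 alternatives called any member. Array weights called Lipc, Lcat and Lrp1, and normexp with quantile normalization called Scarb1 at 0.87 with a limma adjusted p of 0.0169. Slide 1 alone also called Scarb1.

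**Figure D4:**
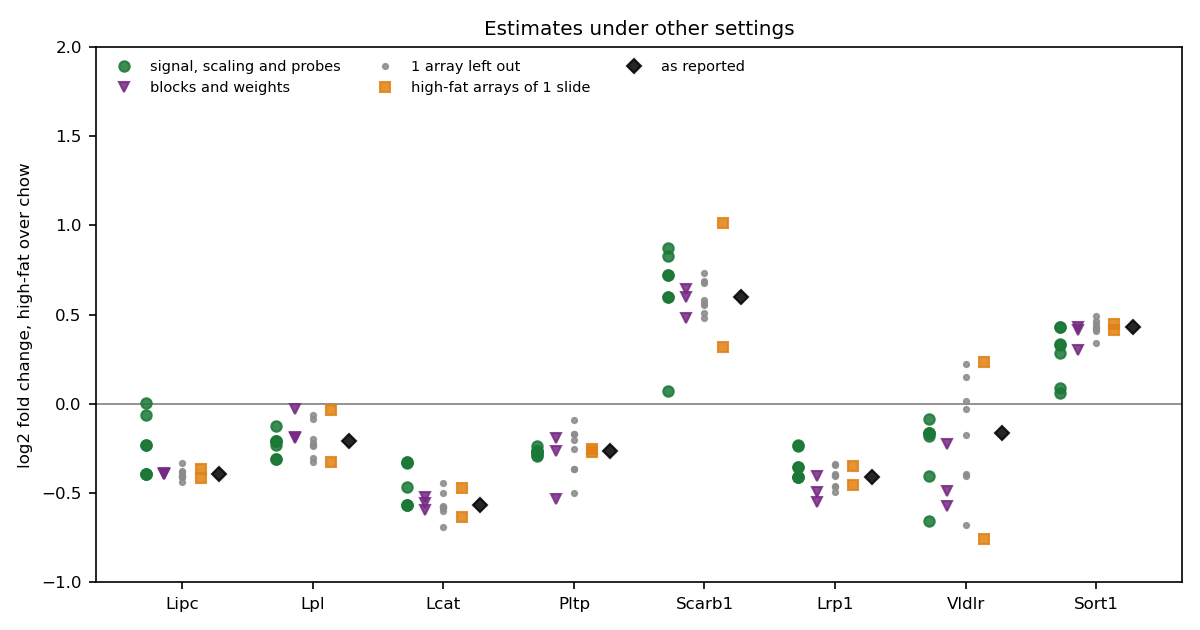
Log2 fold change of high-fat over chow (vertical axis) for each member as reported (black diamonds) and under 20 alternatives, grouped by kind of change. Scarb1 runs from 0.08 to 1.01 and Vldlr crosses 0, while Lcat stays between −0.69 and −0.33.

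Around the members, 6 lists of related genes held 82 genes, and 70 of them were tested. Of these 0 passed by limma, against 3.56% of all features, and 10, or 14.3%, had an unadjusted p under 0.05, against 20.2% of all features. By estimate 41 were lower, and the median log2 fold change was −0.06, against −0.01 over all features. With quantile normalization the median of these genes was −0.01 and 36 were lower. The diets did not overlap in 9 of 70, or 12.9%, against 17.1% of all features. In all 9 the high-fat samples were below the chow samples, where 9.17% of all features lay below and 7.93% above. The 9 genes were among the brighter features, of which more lay below than above. In the bin of Lrp1 15.0% lay below and 6.12% above, and in the brightest bin 23.1% and 2.89%.

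The partners of lipoprotein lipase include its anchor, its activators and its inhibitors. Of 12 listed genes 9 were tested and 0 passed, with 6 lower by estimate and a median of −0.25, but with quantile normalization 2 were lower and the median was 0.11. It was −0.43 without chow sample 2 and −0.12 without chow sample 3. Gpihbp1, which anchors the lipase to the capillary wall, had a log2 fold change of 0.26 with a limma adjusted p of 0.383. The activator Apoc2 stood at −0.31 (0.448), and the inhibitors Apoc3 and Angptl4 at −0.14 (0.795) and −0.45 (0.298), each with its limma adjusted p in parentheses. Lipg, the endothelial lipase, was too dim to be tested.

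Genes of HDL formation and cholesterol efflux had 0 of 11 tested that passed, with 9 lower by estimate and a median of −0.30. That median was −0.052 both with quantile normalization and in the authors' table, and −0.19 without chow sample 1. With normexp background, 6 of the 11 lay below the median of all features. Apoa1, the main protein of HDL, stood at −0.35 with a limma adjusted p of 0.333, and Apoe, the ligand of remnant receptors, at −0.17 with 0.725. Abca1, which loads lipid onto new HDL, stood at 0.19 with 0.722. Bmp1, a protease that matures apolipoprotein A-I, was singled out after its values were seen, as the related gene with the smallest limma adjusted p, 0.0633, at −0.94.

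A list of endocytic receptors and their partners had 0 of 13 tested that passed, with 7 higher and 6 lower by estimate. Its smallest adjusted p, picked out after the values were seen, was that of Snx17, a sorting nexin that recycles Lrp1 to the cell surface, at −0.50 with a limma adjusted p of 0.174. Genes of heparan sulfate proteoglycans, which hold remnants at the hepatocyte surface, had 0 of 13 that passed and a median of 0.03. In the list on sortilin, its relatives and its sorting partners, 0 of 11 passed and the median was −0.01. Apob, the cargo of sortilin, stood at −0.45 with a limma adjusted p of 0.191, and Mttp, which lipidates it, at −0.01 with 0.992.

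Transcription factors of lipoprotein genes had 0 of 13 that passed and a median of −0.03. Hnf4a, a hepatocyte nuclear receptor, stood at −0.20 with a limma adjusted p of 0.505. Nr1h3, which encodes the oxysterol receptor LXR alpha, stood at −0.31 with 0.251 and its diets did not overlap, though with normexp background its log2 fold change was 0.041. Ppara stood at −0.39 with 0.449, and at −0.10 without chow sample 1 and −0.73 without chow sample 2. Pparg stood at 0.48 with 0.527, and at 0.86 without chow sample 1 and 0.12 without chow sample 3. The medians of this list and of the 3 lists described just before it lay on both sides of 0 among the alternatives.

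**Figure D5:**
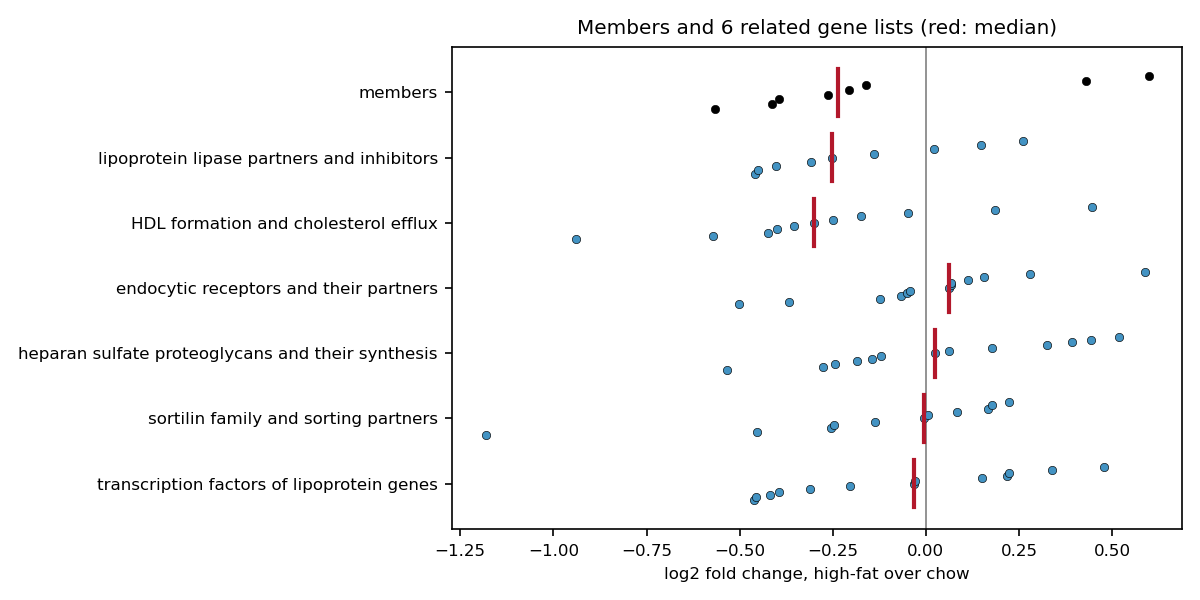
Log2 fold change of high-fat over chow (horizontal axis) for the 8 members and for each tested gene of 6 related lists, with the list median as a red line. The HDL list has a median of −0.30, which was −0.052 with quantile normalization, and the list of endocytic receptors a median of 0.06.

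Markers of the cell types in the samples were read beside the members. Hepatocyte markers were bright on every array, as in liver, and 0 of 7 passed, with 2 at an unadjusted p under 0.05, where 20.2% of all features stood. All 7 were lower by estimate, with a median log2 fold change of −0.37, though with normexp background 2 of 7 lay below the median of all features. The 7 fall in the brightest bin, whose own median was −0.24. With quantile normalization the median of the 7 was −0.10. With normexp and quantile normalization it was −0.06, with 4 lower and 3 higher. Their summed signal, as a multiple of the 75th percentile, ran from 471 to 561 in high-fat samples and from 511 to 800 in chow samples. That is the direction of Lipc and Lcat, which hepatocytes make, and its part in them was not tested. In tissue RNA, fewer cells of a type and less RNA per cell cannot be told apart.

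A summed signal is led by the brightest markers of its list. Of the cells other than hepatocytes, macrophage markers summed to 47.5 to 66.8 in high-fat samples and 66.0 to 81.9 in chow samples, with 0 of 9 passing. By estimate 3 of the 9 were higher and 6 were lower, and with normexp background 6 lay above the median of all features. Sinusoidal endothelial markers summed to 40.1 to 45.7 in high-fat samples and 47.0 to 48.9 in chow samples, with 0 of 5 passing. By estimate 2 of the 5 were higher and 3 were lower, with a median of −0.11. That median was 0.10 with quantile normalization, and with normexp background all 5 lay above the median of all features. Adipocytes make lipoprotein lipase, and 0 of 4 of their tested markers passed. Cfd, Lipe and Fabp4 were above background on every array. Lep was above background on 3 of 5 high-fat arrays and 0 of 3 chow arrays, and Adipoq on no array. The 4 summed to 2.687 to 3.398 in high-fat samples and 3.428 to 4.158 in chow samples, a narrow gap without overlap. Cfd was the brightest of them. By estimate 1 of the 4 was higher and 3 were lower. With normexp background 2 lay below the median of all features and 2 above. Stellate cell and fibroblast markers summed to 13.9 to 20.1 in high-fat samples and 18.2 to 33.1 in chow samples, with 0 of 8 passing. At an unadjusted limma p under 0.05 stood 4 of them, where 20.2% of all features stood. Of these 4, Lrat was higher, and Des, Col3a1 and Pdgfrb were lower. By estimate 3 of the 8 were higher and 5 were lower. The part of these cells in the values of Lpl and Lrp1 was not tested. In the lists for bile duct, red cell, lymphocyte, neutrophil and acinar markers 0 genes passed.

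Muscle also makes lipoprotein lipase and the VLDL receptor, and 4 of its markers were tested. Ckm and Acta1 were above background on 5 of 5 high-fat arrays and 0 of 3 chow arrays, so they entered the test only through the high-fat arrays, and their p-values rest on chow values that were not well above background. Their folds were taken with chow values raised to the dimmest signal of any detected probe on their array. That signal is not the detection limit of these 2 probes, so the folds are not strict bounds. By this measure Ckm, muscle creatine kinase, was 3.31-fold higher in high-fat samples and Acta1, skeletal actin, 1.43-fold higher. The limma adjusted p, 0.0029 for Ckm and 0.0355 for Acta1, came from the values before they were raised. With normexp background 3 of the 4 tested markers were lower by estimate and 1 was higher, against 2 and 2 as reported. Relative to the median of all features, 2 then lay below and 2 above. As reported, Mb and Myl1 stood at −0.18 and −0.03, and Tnnt3 was above background on no array. The summed muscle signal overlapped at 0.719 to 1.20 in high-fat samples and 0.702 to 1.05 in chow samples. Most of that sum came from Mb, the brightest of the 4, so it says little about Ckm and Acta1. The part of muscle in the values of Lpl and Vldlr was not tested.

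The features that followed each member most closely over the 8 arrays were taken by Pearson correlation among 10705 features above background on all arrays. The arrays share slide and diet, so these values describe the 8 arrays and carry no p. Lcat was closest to Maf1 (r = 0.991) and Agmat (r = 0.983), and Lipc to Bbox1 (r = 0.986) and Tmem14c (r = 0.985). Lrp1 was closest to Aspdh (r = 0.985) and Orai1 (r = 0.983). The brighter probes of Sort1 and Scarb1 were closest to Ndrg3 (r = 0.979) and to Mnat1 (r = 0.967). For Lpl, Pltp and Vldlr the closest were Smim3 (r = 0.963), Tcn2 (r = 0.957) and Dcun1d2 (r = 0.944). Among the members themselves, Lipc and Lcat had r = 0.76, and the brighter Sort1 probe had r = −0.78 with Lipc and −0.82 with Lcat.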

How the data were processed

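Liver RNA of 8 rat samples was measured on single-colour Agilent arrays, 1 for each sample. Scans were read with Agilent Feature Extraction 11.0.1.1, per the submitters' processing notes. Per the file headers, the deposited scanner files hold the processed signal as intensity, background-subtracted and not scaled between arrays, beside the median signal and median local background. The authors' value table holds log2 values; its columns had equal 75th percentiles and medians of 6.42, and how it was made is not stated in the labels. It served as an alternative.

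Of 44254 spots, controls and outlier spots (331 to 550 on each array) were left out. Spots of each of 30367 probes were averaged as log2 processed signal, and the 75th percentile of the array was subtracted. A probe stayed in if a share of 0.5 or more of its spots exceeded background clearly on 3 or more of the 8 arrays, which left 25629. Names came from printed accessions matched to a RefSeq table of rat genes (GRCr8): 18005 probes received 15168 symbols. Where a gene had several probes, the brightest on average stood for it, and other probes were fitted as features of their own. No spots were saturated, and 0 of 28 pairs of arrays were identical.

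Diets were compared with limma 3.58.1 in R 4.3.3 (lmFit and eBayes, two-sided, Benjamini-Hochberg over all features), and single values with exact permutation tests. The method was tested on simulated data. Alternatives were normexp background (offset 50, on the median signal), quantile normalization, both, the authors' table, no filter, every probe or the mean of probes, slide as a random block, a replicate block, array weights, each sample left out and each high-fat slide alone. Slides were inferred: arrays with the same scan time were taken as 1 slide.

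The members and the gene lists were chosen with earlier results of these data known. Named genes were all members with every probe, a fixed set of related genes whatever their p, related genes that passed, and the features most like each member; markers are given by list. Some of that set and 1 of the 3 planned ratios are not reported here. The ratios between probes and Bmp1 were chosen after their values were seen. Genomic positions of probes are not given.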

Additional observations from a re-analysis of the deposited data

Results flagged for a closer look

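The Lcat probe had 1 high-fat sample apart from the others. High-fat sample 5 read 5.14 against 5.45 to 5.54 in the other high-fat samples, and the gap took 0.758 of the range of the group, above the critical value of 0.71 for 5 samples. It was 1 of 33 groups examined, and chance marks about 1 group in 20. Without high-fat sample 5 Lcat had a log2 fold change of −0.50 and a limma adjusted p of 0.19.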

How the results depend on the processing

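All but 3 of the 20 alternatives called no member, and Lpl, Pltp, Vldlr and Sort1 were called in none of them. Array weights called 3 members (Lipc at −0.39, Lcat at −0.59, Lrp1 at −0.49), 13 related genes and 3774 features, against 0, 0 and 815 as reported. Normexp with quantile normalization called 1 member (Scarb1 at 0.87), 5 related genes and 2114 features, and there Lipc was 0.0032. Slide 1 alone called 1 member (Scarb1 at 1.01), 2 related genes and 1956 features, and slide 2 alone 0 members, 3 related genes and 2903 features, with Vldlr at 0.24. Normexp alone called 148 features and slide as a random block 84. Quantile normalization, the authors' table and no filter each called 1 related gene.

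The labels do not say whether equal replicate numbers pair the samples. The deviations of same-numbered samples correlated at 0.0450, 0.0347 and 0.0654. No other pairs were set beside them, so these values cannot settle it. With a replicate block 0 features passed by limma, against 815, with 3050 at an unadjusted p under 0.05, against 4621; it changed no call of a member.

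Signs turned as follows. With normexp, Gpihbp1 was −0.35, Nr1h3 0.041 and Lpl over Lipc −0.17. With normexp and quantile normalization, Gpihbp1 was −0.056, Nr1h3 0.10, Apoe 0.17, Apoc3 0.14 and Lpl over Lipc −0.13. With quantile normalization and with the authors' table, Apoe was 0.18 in both, Mttp 0.12 in both, Apoc2 0.11 in both, Apoc3 0.13 and 0.14, and Lpl over Lipc −0.079 and −0.080. With slide as a random block Mttp was 0.037. Slide 1 alone gave Apoe 0.0052, Apoc3 0.044 and Mttp 0.38. The cause was not tested.

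With 1 sample left out, features called ran from 374 to 789 and related genes called from 0 to 2, the highest without chow sample 2, and no member was called. The counts were 455 without high-fat sample 2, and 374, 440 and 432 without chow samples 1 to 3. Vldlr ran from −0.68 to 0.22, Mttp from −0.13 to 0.083, Apoa1 from −0.51 to −0.19, Apoc2 from −0.56 to −0.12, Hnf4a from −0.34 to −0.12, Apoe from −0.43 to 0.00098, Abca1 from −0.094 to 0.34 and Apoc3 from −0.43 to 0.033.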
